A study of Danio rerio with 4 samples.

Results

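Interferon response genes are the genes that cells turn on when they sense a virus. A list of 10 was taken by gene name from the 26812 genes of the deposited table, each name matching 1 gene, and 8 of them are described here: isg15, mxa, mxb, mxc, rsad2, irf7, irf1b and ifih1. The list was chosen by people who knew the Kdm5a-KO over WT values of these same libraries, so the differences between genotypes are given as a description, with no test.

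Whole zebrafish embryos were profiled by RNA sequencing at 24 and 48 h after fertilization (hpf), with a single library for each of the 4 groups: WT at 24 hpf, Kdm5a-KO at 24 hpf, WT at 48 hpf and Kdm5a-KO at 48 hpf. Kdm5a, a demethylase that removes methyl groups from lysine 4 of histone H3, was targeted with CRISPR/Cas9, which the labels describe as knockout fish that were bred and the methods as an sgRNA and a Cas9 plasmid injected into the yolk, where embryos can be mosaic. The sample titles abbreviate the Kdm5a-KO groups as kdm5a-mo without explaining it, embryos were pooled for each 24 hpf library, and the sources used here name no injected control for the WT embryos. The columns of the deposited table carry a letter and a number, which were read as C for WT, K for Kdm5a-KO, 1 for 24 hpf and 2 for 48 hpf, an inference from the names that the labels do not spell out.

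Interferons are secreted proteins that bind receptors on the cell surface, where the kinases Jak1 and Tyk2 phosphorylate transcription factors of the STAT family. With Irf9, these STAT proteins enter the nucleus and switch on interferon-stimulated genes, whose products block viral replication. Zebrafish type I interferons are called ifnphi1 to ifnphi4, and fish carry extra copies of several antiviral genes, such as a large mx family.

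The level of the targeted gene was not lower in Kdm5a-KO at 24 hpf. An RNA level does not show whether a gene was edited, so it neither bears out nor refutes the labels. KDM5A was at 13.8 FPKM in WT and 20.3 FPKM in Kdm5a-KO at 24 hpf, then at 18.1 FPKM in WT and 16.3 FPKM in Kdm5a-KO at 48 hpf. FPKM counts fragments relative to gene length and to the mapped fragments of the library. Kdm5a-KO throughout stands for the libraries labelled so, and every direction given rests on that label. The libraries held between 7441797 and 15922314 reads, and WT at 24 hpf was the smallest. rRNA-related genes took 12.1% of the reads of WT at 24 hpf and at most 0.432% of those of the other libraries. With 1 library per group there was no replicate check of any difference. Differences are log2((Kdm5a-KO + 1)/(WT + 1)) of FPKM, which understates the change of low genes, and ratios of FPKM carry exact (Clopper-Pearson) 95% intervals that cover counting error only. Rescaling the libraries by the median of ratios moved all log2 ratios of high genes by -0.27 at 24 hpf and by -0.01 at 48 hpf.

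Isg15, a small ubiquitin-like protein that is attached to other proteins during the antiviral response, differed most among the 8 genes. The isg15 level (ENSDARG00000086374, chromosome 5) was 0.118 FPKM in WT and 60.7 FPKM in Kdm5a-KO at 24 hpf, and 1.13 and 11.9 FPKM at 48 hpf. These values stood on 1, 1019, 20 and 216 reads. Both Kdm5a-KO libraries were thus above both WT libraries. At 24 hpf the FPKM ratio was 515 (95% counting interval 92.2 to 20361), a range that reflects the single WT read, and the log2 ratio was 5.79, which ranked 1 among all 26812 genes. After rescaling it was 5.63. At 48 hpf the FPKM ratio was 10.5 (6.65 to 17.6), the log2 ratio was 2.60 and the rank was 43.

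The Mx proteins are dynamin-like GTPases, which in mammals trap the components of RNA viruses. Among the interferon response genes they are mxa, mxb and mxc, of which mxc had the highest level in every library. The level of mxc (ENSDARG00000024789, chromosome 9) was 0.565 FPKM in WT and 6.40 FPKM in Kdm5a-KO at 24 hpf, and 1.58 and 3.81 FPKM at 48 hpf. Here too both Kdm5a-KO libraries were above both WT libraries. The FPKM ratio was 11.3 (6.38 to 22.2) at 24 hpf, with a log2 ratio of 2.24, and 2.41 (1.82 to 3.23) at 48 hpf, with a log2 ratio of 0.90.

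The other mx genes were near the limit of detection. The level of mxa (ENSDARG00000021688, chromosome 1) was 0.141 and 0.374 FPKM at 24 hpf in WT and in Kdm5a-KO, then 0.0507 and 0.132 FPKM at 48 hpf, on 4, 21, 3 and 8 reads. Its FPKM ratio was 2.65 (0.895 to 10.6) at 24 hpf and 2.60 (0.624 to 15.2) at 48 hpf, so both intervals held 1. For mxb (ENSDARG00000004953, chromosome 1) the levels were 0.411, 0.296, 0.112 and 0.11 FPKM in the same order, on 7, 10, 4 and 4 reads. A difference in mxb was not detectable at this depth, with FPKM ratios of 0.722 (0.248 to 2.23) and 0.975 (0.182 to 5.23). The spans of mxa and mxb overlap by 7612 bases on the same strand, so the division of reads between them is uncertain.

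Rsad2, or viperin, is a radical SAM enzyme that makes a chain-terminating nucleotide against viral polymerases. It is often among the most strongly induced genes of an interferon response. Here rsad2 (ENSDARG00000004952, chromosome 17) had 3 reads in each 24 hpf library and 1 read in each 48 hpf library. Its levels were 0.248 and 0.126 FPKM at 24 hpf and 0.0397 and 0.0387 FPKM at 48 hpf. The FPKM ratio of 0.505 (0.0677 to 3.77) at 24 hpf would allow a difference in either direction. That interval lies wholly below the interval of isg15. The log2 ratios of rsad2 were -0.15 at 24 hpf and -0.001 at 48 hpf.

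**Figure D1:**
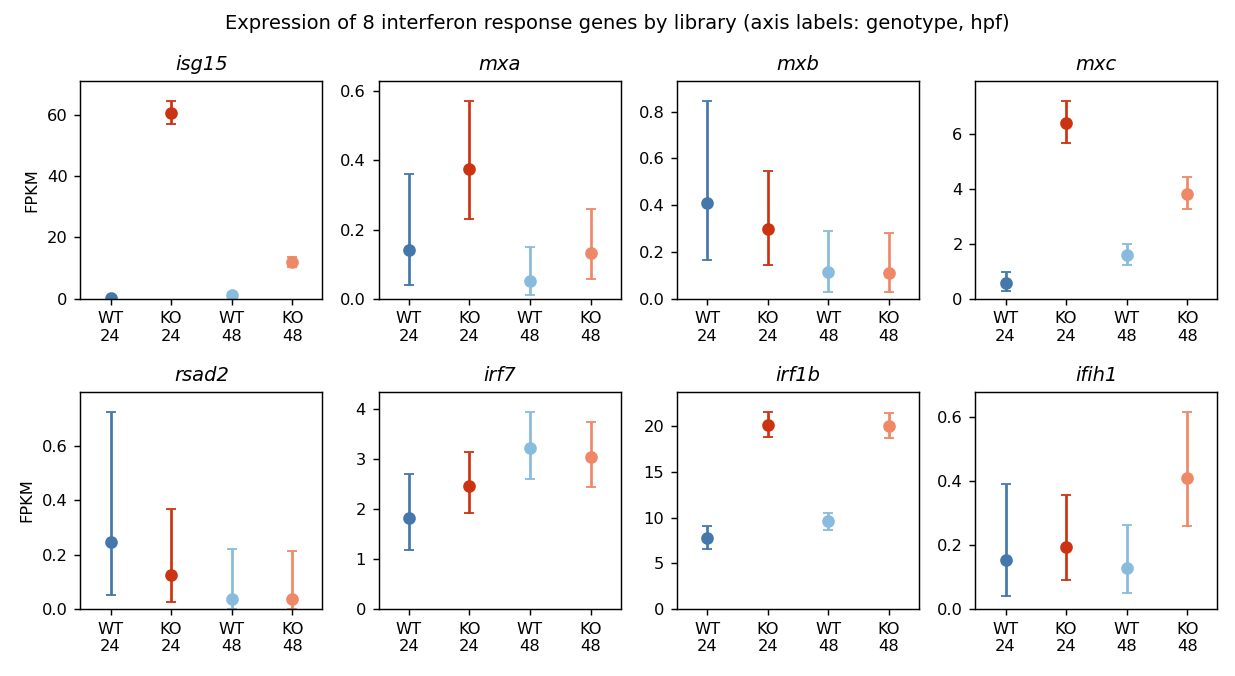
Level of each of the 8 interferon response genes in the 4 libraries, in FPKM on a scale of its own, with 1 point per library and bars for the exact Poisson 95% counting interval. In both Kdm5a-KO libraries isg15 and mxc lie above both WT libraries, whereas rsad2 and mxb lie at or below 0.411 FPKM in every library.

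Of the transcription factors, irf7 and irf1b had higher levels than every effector in both WT libraries. Irf7, the regulator that amplifies type I interferon production, showed a small difference. Irf7 (ENSDARG00000045661, chromosome 25) was at 1.82 and 2.47 FPKM at 24 hpf in WT and in Kdm5a-KO, then at 3.22 and 3.03 FPKM at 48 hpf. Its FPKM ratios were 1.35 (0.844 to 2.24) and 0.943 (0.697 to 1.28), and both intervals held 1.

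Irf1b (ENSDARG00000043249, chromosome 21), a copy of the interferon regulatory factor that acts downstream of interferon gamma, had the highest level of the 8 genes in WT at both ages. It was at 7.74 FPKM in WT and 20.1 FPKM in Kdm5a-KO at 24 hpf, and at 9.58 and 19.99 FPKM at 48 hpf. Both Kdm5a-KO libraries were above both WT libraries, by FPKM ratios of 2.60 (2.19 to 3.10) and 2.09 (1.86 to 2.35). The log2 ratios were 1.27 and 0.99, so at 48 hpf irf1b lay just short of 2-fold on this scale. After rescaling the 24 hpf log2 ratio was 1.02, just past 2-fold. The gene model behind irf1b is unusual. It spans 126016 bases with 2777 bases of summed length, covers 2 other genes, and its best protein match in the deposited annotation is thioredoxin domain-containing protein 15, whose gene has no row under its own name. In the RefSeq annotation irf1b is 6142 bases long and that gene lies 206127 bases from it. Whether the reads are those of irf1b, of that gene or of both is thus unsettled. The counts below are given without irf1b as well.

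Ifih1, also called MDA5, is a helicase that senses long double-stranded RNA in the cytoplasm. Ifih1 (ENSDARG00000018553, chromosome 9) was at 0.153 and 0.193 FPKM at 24 hpf in WT and in Kdm5a-KO, then at 0.128 and 0.411 FPKM at 48 hpf, on 4, 10, 7 and 23 reads. The Kdm5a-KO library was higher by an FPKM ratio of 3.20 (1.33 to 8.84) at 48 hpf, while at 24 hpf the ratio of 1.26 (0.364 to 5.52) was within counting error.

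**Figure D2:**
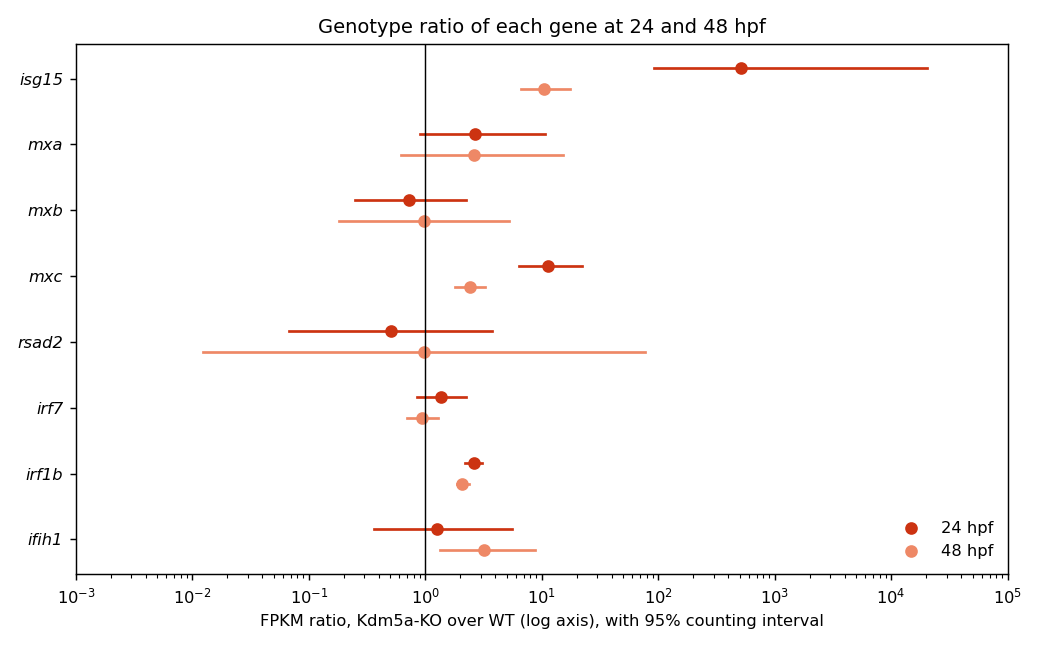
FPKM ratio of Kdm5a-KO over WT for each interferon response gene at 24 and at 48 hpf on a log axis, with exact 95% counting intervals. Ratios reach 515 for isg15 and 11.3 for mxc at 24 hpf, and the intervals of mxa, mxb, rsad2 and irf7 hold 1 at both ages.

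Counted together at 24 hpf, 3 of the 8 genes (isg15, mxc and irf1b) were at least 2-fold higher in Kdm5a-KO on the FPKM plus 1 scale and 0 were lower. Of all genes, 2.72% were higher and 1.32% lower at this threshold, or 4.04% in either direction. At 48 hpf, isg15 alone passed 2-fold, against 2.56% of all genes higher, 3.49% lower and 6.05% in either direction. Without irf1b, 2 genes passed at 24 hpf and 1 at 48 hpf. Since the genes were chosen with these contrasts known, nothing is read from these counts. Their log2 ratios had a median of 0.28 at 24 hpf, beside 0.12 over all genes, and of 0.22 at 48 hpf, beside -0.01. After rescaling the 24 hpf median was 0.16, and without irf1b the medians were 0.27 and 0.11.

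Genes can also be counted by their intervals. At 24 hpf the interval of the FPKM ratio lay above 1 for 3 of the 8 genes (isg15, mxc and irf1b) and below 1 for 0, beside 28.6% and 7.30% of all genes. At 48 hpf it lay above 1 for 4 genes (isg15, mxc, irf1b and ifih1) and below 1 for 0, beside 20.2% and 25.3% of all genes. Isg15, mxc and irf1b were the genes above 1 at both ages.

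The make-up of the group follows from the isg15 difference, which was known when the genes were chosen, so it is a description. The summed level of the 8 genes was 11.2 FPKM in WT and 90.6 FPKM in Kdm5a-KO at 24 hpf, and 15.8 and 39.4 FPKM at 48 hpf. Isg15 made up 1.05% of that sum in WT at 24 hpf and 66.9% in Kdm5a-KO, then 7.13% and 30.2% at 48 hpf. Without irf1b the shares of isg15 were 3.40% and 86.0% at 24 hpf and 18.0% and 61.2% at 48 hpf. Its rank among the 8 genes was 8 in WT and 1 in Kdm5a-KO at 24 hpf, against 4 and 2 at 48 hpf. The share and rank in WT at 24 hpf rest on 1 read of isg15, with a counting interval of 0.003 to 0.656 FPKM. That interval holds the WT levels of mxa, mxb, mxc, rsad2 and ifih1 at 24 hpf, so the rank is uncertain.

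Between the 2 ages, isg15 and mxc were higher at 48 hpf in WT and lower at 48 hpf in Kdm5a-KO. In WT, isg15 was higher at 48 hpf by an FPKM ratio of 9.59 (1.53 to 397) and mxc by 2.80 (1.5 to 5.67). In Kdm5a-KO, isg15 at 48 hpf was 0.196 (0.168 to 0.227) of its 24 hpf level and mxc was 0.595 (0.488 to 0.723). These comparisons use the same libraries as those between genotypes and are not independent of them. In WT, 0 of the 8 genes were past 2-fold on the FPKM plus 1 scale, where isg15 had a log2 ratio of 0.93 and mxc of 0.72, beside 12.4% of all genes higher, 4.45% lower and 16.9% in either direction. In Kdm5a-KO, isg15 was the gene past 2-fold, lower at 48 hpf, beside 6.34% of all genes higher, 3.54% lower and 9.87% in either direction. By the counting interval, 4 of the 8 genes were higher and 0 lower with age in WT (31.1% and 18.5% of all genes), and 0 were higher and 3 lower in Kdm5a-KO (22.4% and 29.4%).

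The rest of the interferon pathway was read from a list of 118 names, of which 98 matched a gene of the table, ordered by role. At 24 hpf 16 of the 98 genes (16.3%) were at least 2-fold higher in Kdm5a-KO and 0 were lower, beside 2.72% and 1.32% of all genes. At 48 hpf 6 (6.12%) were higher and 0 lower, beside 2.56% and 3.49% of all genes. The 98 log2 ratios had a median of 0.29 at 24 hpf and of 0.07 at 48 hpf, beside 0.12 and -0.01 over all genes. After rescaling, 12 of the 98 were at least 2-fold higher at 24 hpf and 6 at 48 hpf, beside 433 and 671 of all 26812 genes. At both ages 0 of the 98 were lower after rescaling, beside 496 and 962 of all genes.

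The type I interferons, ifnphi1 to ifnphi4, were close to 0 in every library. Interferon gamma was not among the ligands read, so nothing is said of its level. Ifnphi1 had 0 reads in WT and 3 in Kdm5a-KO at 24 hpf, and 5 in each library of 48 hpf. In the same order ifnphi2 had 0, 1, 1 and 0 reads, ifnphi3 had 5, 7, 8 and 1, and ifnphi4 had 0, 0, 3 and 2. A difference in the ligands at 24 hpf was thus not detectable at this depth. At 48 hpf ifnphi3 was lower in Kdm5a-KO by its interval, with a ratio of 0.122 (0.00275 to 0.909) on 8 and 1 reads. The intervals of the other ligands held 1. Of their receptor chains, crfb1 was at 1.39 FPKM in WT and 5.52 FPKM in Kdm5a-KO at 24 hpf, a ratio of 3.97 (2.65 to 6.16), and at 1.75 and 2.34 FPKM at 48 hpf. Crfb2 was at 0.593 and 0.507 FPKM at 24 hpf and, lower in Kdm5a-KO, at 0.984 and 0.511 FPKM at 48 hpf, a ratio of 0.520 (0.303 to 0.872).

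Among the kinases and transcription factors, 0 of 11 passed 2-fold at 24 hpf, and irf9 and stat3 passed it at 48 hpf, both higher. Of all genes 2.72% and 2.56% were higher. By the counting interval 5 of the 11 were higher and 0 lower at 24 hpf, beside 28.6% and 7.30% of all genes. At 48 hpf 5 were higher and 1 lower, beside 20.2% and 25.3%. Irf9, a DNA-binding partner of STAT proteins, was at 3.88 and 7.74 FPKM at 24 hpf in WT and in Kdm5a-KO, then at 2.25 and 7.09 FPKM at 48 hpf. Its ratios were 1.99 (1.47 to 2.75) at 24 hpf and 3.15 (2.37 to 4.24) at 48 hpf. Stat3, which carries cytokine signals such as that of interleukin 6, was at 9.14 and 14.3 FPKM at 24 hpf and at 6.97 and 19.8 FPKM at 48 hpf. Stat2, which binds Irf9, had intervals that held a ratio of 1 at both ages, with 1.12 and 1.49 FPKM at 24 hpf and at 1.18 and 1.04 FPKM at 48 hpf. Jak1 was at 7.55 and 10.6 FPKM at 24 hpf and at 8.43 and 13.9 FPKM at 48 hpf, tyk2 had ratios of 1.68 (0.981 to 3.03) and 1.43 (1.09 to 1.88), and irf3, with 1, 3, 4 and 10 reads, was too low to compare.

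Of the sensors and adaptors, traf3 was the gene of 13 past 2-fold at 24 hpf, at 2.07 and 6.39 FPKM, and 0 passed at 48 hpf. Of all genes 2.72% and 2.56% were higher at this threshold. Dhx58, a helicase related to Ifih1, had 1 read in WT and 27 in Kdm5a-KO at 24 hpf, against 0 and 7 at 48 hpf, so it shared the direction of isg15 at a low level. Mavs, the adaptor through which Ifih1 signals, was at 0.844 and 1.49 FPKM at 24 hpf and at 1.39 and 1.21 FPKM at 48 hpf, with both intervals holding 1.

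Induced effectors other than the 8 genes gave 6 of 46 higher past 2-fold at 24 hpf and 3 of 46 at 48 hpf, beside 2.72% and 2.56% of all genes. Isg20, an exonuclease that degrades viral RNA, was at 24.7 and 109 FPKM at 24 hpf and at 14.0 and 66.5 FPKM at 48 hpf. Its ratios of 4.44 (3.72 to 5.33) and 4.76 (4.02 to 5.67) were alike at the 2 ages, unlike those of isg15. Cd40, a receptor of the tumor necrosis factor receptor family, was at 0.229 and 3.47 FPKM and then at 0.548 and 2.19 FPKM. The others past 2-fold at 24 hpf were xaf1, cxcl20, ccl19a.1 and ifit11, with between 32 and 48 reads in Kdm5a-KO, and at 48 hpf, beside isg20 and cd40, socs3b, a feedback inhibitor of cytokine signalling, at 12.7 and 41.3 FPKM. The inhibitor socs1a had ratios of 2.02 (0.805 to 6.05) and 2.70 (1.40 to 5.55).

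Antigen presentation was the role with the largest share past 2-fold at 24 hpf, 8 of 18 genes with a median log2 ratio of 0.69, beside 2.72% of all genes. At 48 hpf 1 of the 18 passed, beside 2.56%. After rescaling, 5 of the 18 passed at 24 hpf, with a median log2 ratio of 0.59, beside 433 of all 26812 genes. B2m, the light chain of class I major histocompatibility molecules, was at 3.78 and 25.9 FPKM at 24 hpf and at 3.24 and 8.99 FPKM at 48 hpf, with ratios of 6.84 (4.90 to 9.83) and 2.78 (2.09 to 3.73). Mhc1uba, a class I heavy chain, was at 0.421 and 5.46 FPKM at 24 hpf and at 2.17 and 1.70 FPKM at 48 hpf. The other 6 at 24 hpf were the class I gene mhc1zba, b2ml, the proteasome genes psmb10, psme1 and psme2, and abcb3l1, a transporter of peptides also named tap2a. Psmb10 and abcb3l1 had 0 reads in WT at 24 hpf, and 28 and 25 reads in Kdm5a-KO.

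**Figure D3:**
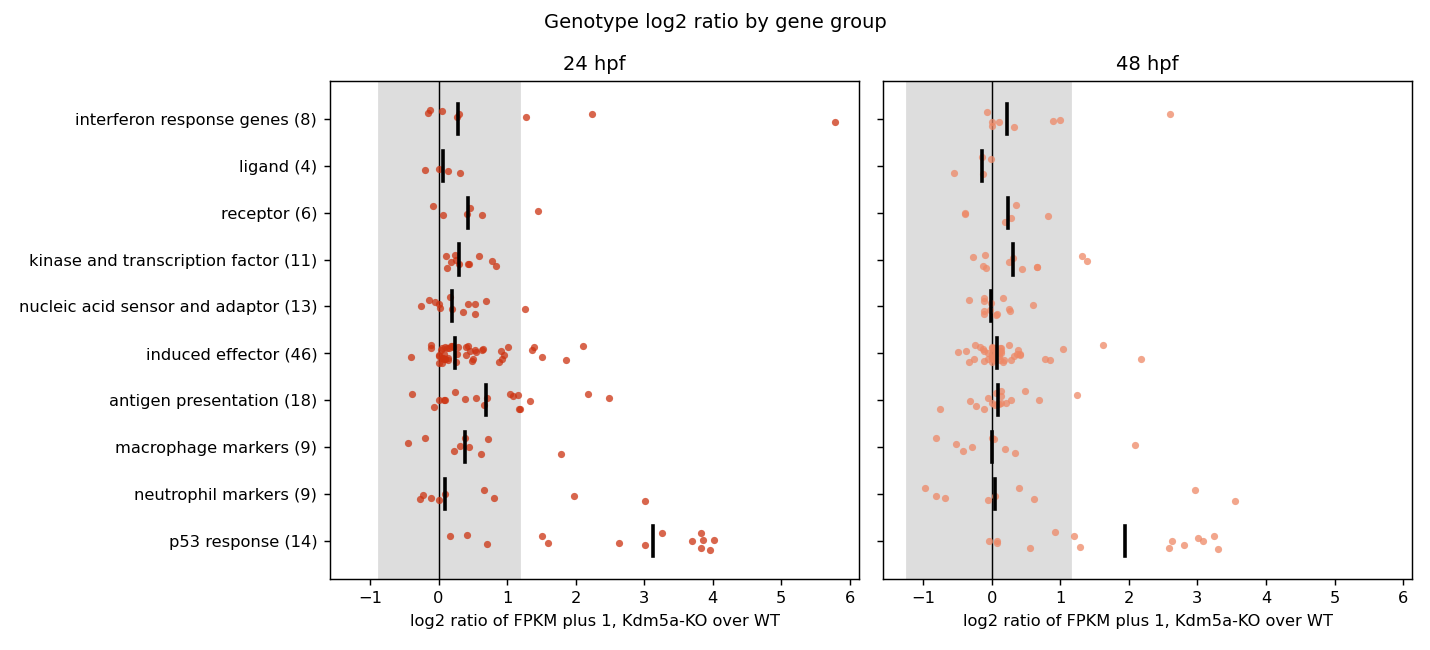
Log2 ratio of FPKM plus 1, Kdm5a-KO over WT, at 24 and 48 hpf for the 8 interferon response genes, the pathway list by role and the marker lists, with 1 point per gene, a black bar at each median, and gray for the middle 95% of all expressed genes. At 24 hpf 8 of 18 antigen presentation genes and 6 of 46 induced effectors lie at or above 2-fold, and 0 of the 4 ligands do.

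Markers of immune cells and of the p53 response were read beside these genes, since bulk RNA cannot tell more cells of a type from more RNA per cell. Of 9 macrophage markers, 1 was past 2-fold at each age (lygl1 at 24 hpf, mpeg1.2 at 48 hpf), beside 2.72% and 2.56% of all genes higher. Their summed level was 7.06 and 16.7 FPKM at 24 hpf and 13.5 and 17.4 FPKM at 48 hpf, with 0 of them at 0 FPKM. Of the 24 hpf sums lygl1 made up 1.88 and 8.90 FPKM. By the counting interval 4 macrophage markers were higher and 1 lower in Kdm5a-KO at 24 hpf, beside 28.6% and 7.30% of all genes. At 48 hpf 2 were higher and 2 lower, beside 20.2% and 25.3% of all genes. Csf1ra was lower at both ages, with ratios of 0.521 (0.311 to 0.875) and 0.576 (0.432 to 0.764). Irg1 was higher at both ages, with ratios of 2.98 (1.51 to 6.54) and 2.39 (1.43 to 4.13). Spi1b was higher at 24 hpf, with a ratio of 2.64 (1.28 to 6.13). The defining gene mpeg1.1 had 7 reads in each 24 hpf library and was lower in Kdm5a-KO at 48 hpf, at 2.01 and 0.715 FPKM. Its paralogue mpeg1.2 was higher at both ages, with ratios of 8.09 (2.06 to 69.6) and 7.77 (5.54 to 11.2). Of 9 neutrophil markers, mmp9 and mmp13a were past 2-fold at both ages, beside 2.72% and 2.56% of all genes higher. The summed level was 25.2 and 60.1 FPKM at 24 hpf and 92.9 and 166 FPKM at 48 hpf. Of these sums mmp9 made up 2.36 and 26.1 FPKM and then 5.96 and 80.7 FPKM. By the counting interval 4 neutrophil markers were higher and 0 lower at 24 hpf, beside 28.6% and 7.30% of all genes. At 48 hpf 4 were higher and 3 lower, beside 20.2% and 25.3% of all genes. The higher ones at both ages were mmp9, mmp13a, nccrp1 (ratios of 1.65 and 1.58) and cebpa (ratios of 1.92 and 1.35). The 3 lower ones at 48 hpf were mpx, lyz (50.2 and 25.0 FPKM) and npsn (9.61 and 5.03 FPKM). The neutrophil granule gene mpx was at 0.987 and 0.837 FPKM at 24 hpf and at 3.77 and 1.98 FPKM at 48 hpf, so this defining marker was not higher in Kdm5a-KO, while cpa5 was at 0 FPKM in both 24 hpf libraries. The part of these cells in the isg15 difference was not tested.

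The p53 response was read from a list that, like the others, was written with earlier results of these data known. Its values are thus a description. Of 14 rows of 13 p53 response genes, 11 were at least 2-fold higher in Kdm5a-KO at 24 hpf and 9 at 48 hpf, beside 2.72% and 2.56% of all genes, with median log2 ratios of 3.13 and 1.94. Their summed level was 353 and 3669 FPKM at 24 hpf and 380 and 2387 FPKM at 48 hpf. Of these sums ccng1 made up 205 and 1964 FPKM and then 253 and 1565 FPKM. The p53 target mdm2 was at 9.78 and 152 FPKM at 24 hpf and at 7.05 and 67.3 FPKM at 48 hpf, and the cell cycle inhibitor cdkn1a was at 5.29 and 88.6 FPKM and then at 4.44 and 52.3 FPKM. Mdm2 and cdkn1a, named after their values were seen, were higher in Kdm5a-KO at both ages and by more at 24 hpf. The part of the p53 response in the isg15 difference was not tested.

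The profile of isg15 was compared with those of 19262 other genes over the 4 libraries, by the Euclidean distance between centred log2(FPKM + 1) values. These genes had a symbol and reached 1 FPKM in at least 1 library. The 8 nearest genes were si:dkey-204l11.1 (distance 1.01), phlda3 (1.28), si:dkey-85n7.7 (1.3), casp8 (1.37), si:rp71-1d10.6 (1.37), si:dkey-40h20.1 (1.38), RPS27L (1.39) and rspo1 (1.41). The 4 points are single libraries, and the measure also weighs the size of a difference, so a gene with a small one cannot be near. Phlda3, casp8 and RPS27L belong to the p53 response list. Since the lists were written with earlier results of these data known, the ranks below are a description. Some genes of the p53 response and pathway lists, such as fas, psmb10 and abcb3l1, reached 1 FPKM only in Kdm5a-KO. Pathway genes below that limit in every library were not ranked. The ranks of the lists thus carry no support. Of the 13 genes of the p53 response list that could be ranked, 6 were among the first 20 and 9 among the first 100, with a median rank of 21. Of the 52 pathway genes that could be ranked, 0 were among the first 20 and 2 among the first 100, b2m at 49 and isg20 at 56. Their median rank was 3135. All ranks are out of 19262 genes, so the first 100 are a small part, and both medians lie nearer the top than the middle. Among the interferon response genes, mxc would rank 82 (distance 2.87) and irf1b 251 (distance 3.48), and the other 5 would rank between 6210 and 12208. Of these 5, mxa, mxb, rsad2 and ifih1 stayed below 1 FPKM in every library, so they did not meet the limit of the ranked genes. Low levels flatten a profile on this scale, whatever the ratios.

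**Figure D4:**
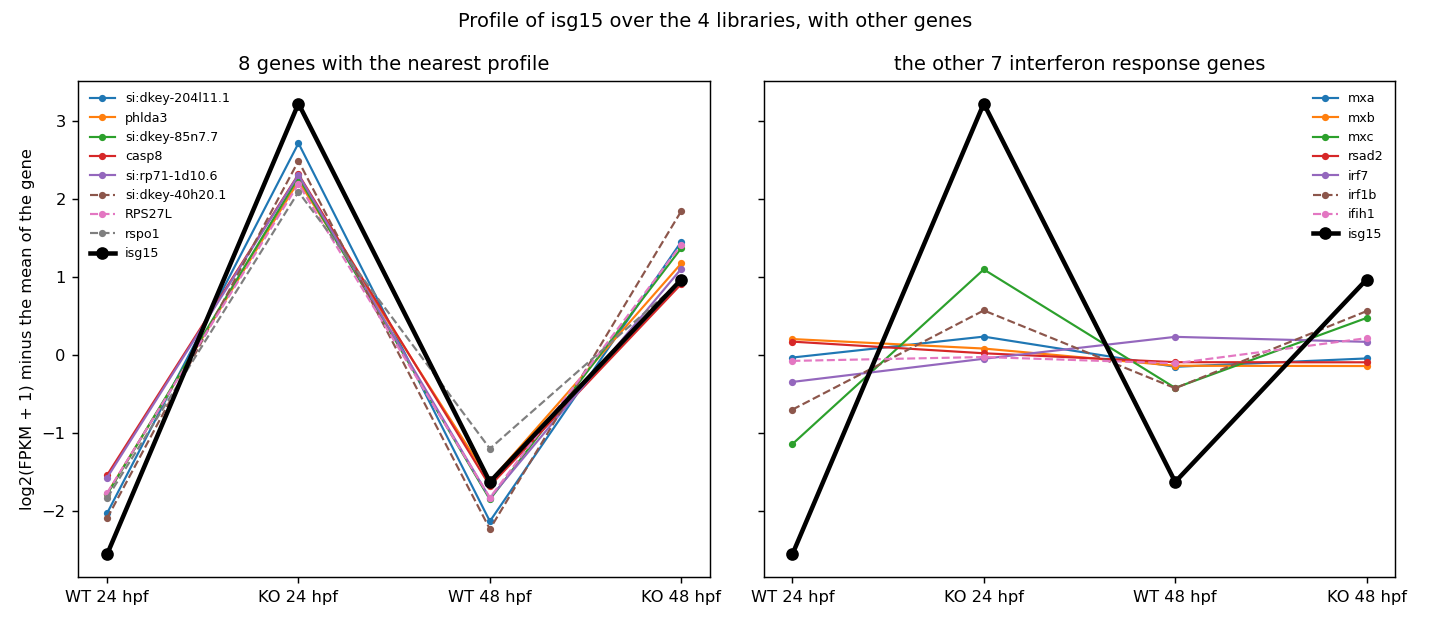
Log2(FPKM + 1) minus its mean over the 4 libraries, for isg15 (black) with its 8 nearest genes on the left and with the other 7 interferon response genes on the right, where KO is Kdm5a-KO. The 8 nearest genes were picked from 19262 genes by their distance to isg15, so their closeness follows from that choice. They lie within a distance of 1.41. Mxc, the nearest of the other 7 interferon response genes, lies at 2.87 and would rank 82 among the 19262 genes.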

How the data were processed

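RNA of 4 libraries of zebrafish embryos was analysed. Per the study's methods, reads were checked with FastQC 0.11.5, filtered, aligned with HISAT2 2.1.0 and quantified with StringTie 1.3.3b, and differences were called with DESeq 1.28.0. The authors deposited FPKM values, 1 per Ensembl gene and library, with no read counts. The submitters' processing notes name mm10, a mouse build, so no coordinates are given. The methods name an NEBNext kit and injected embryos, and the labels a SMARTER kit and crosses. The 48 hpf libraries are known from the labels.

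The members and lists were chosen with earlier results of these data known. Of the 10 members, 2 are not reported here, and counts are over the other 8. Named genes were the members, pathway genes fixed by role, up to 20 other pathway genes past 2-fold by size of the log2 ratio, and the 8 genes nearest to isg15. Ratios used a pseudocount of 1 FPKM and no filter. mpeg1.1, mpeg1.2, lygl1, csf1ra, mpx, lyz, npsn, mmp9, mmp13a, cpa5, mdm2 and cdkn1a were named from the marker lists after their values were seen. Irg1, spi1b, nccrp1, cebpa, ccng1 and fas were named in the same way. Reads were recovered from the FPKM steps as the smallest whole numbers that fit, within 0.001, and summed to between 98.2% and 98.5% of the totals. In a test on simulated data of the 24 hpf comparison over 26812 genes, reads were exact for 96.2% of genes. The simulation reused the recovered gene lengths and totals and held counting noise only, so it cannot show an error in these. The 200 genes changed by 4-fold were drawn from genes of at least 1 FPKM in every library. Of these, 196 passed in the right direction. Of 26612 unchanged genes, 176 passed in either direction. The rate of 196 of 200 cannot be carried over to low genes, whose change the pseudocount understates. In WT at 24 hpf 2 of the 8 members reached 1 FPKM. Intervals cover counting error only, and no p-value is given with 1 library per group. Of 9 early somite genes, 7 were higher at 24 hpf in both genotypes, as a check of the column numbers. Alternatives were a pseudocount of 0.1, rescaling, a 3-fold threshold, a filter on the mean FPKM and protein-coding genes only. Computation used Python 3.11.15 with pandas 2.3.3, scipy 1.17.1 and numpy 2.4.6, and figures matplotlib 3.10.9. 20 pathway names, crfb5 among them, matched no gene and are not analysed here.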

Additional observations from a re-analysis of the deposited data

Results flagged for a closer look

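The log2 ratio of irf7 pointed in opposite directions at the 2 ages, Kdm5a-KO being higher at 24 hpf and lower at 48 hpf. Subtracting the 24 hpf log2 ratio from the 48 hpf one gave -0.36 for irf7. This difference between ages was not tested, since each group had 1 library, and both intervals of irf7 held a ratio of 1.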

How the results depend on the processing

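No paired analysis was possible because there was 1 library per group, and no library could be left out. No member changed direction under a pseudocount of 0.1, rescaling or totals without rRNA genes. Of the 16 log2 ratios of members, 8 left their counting interval under the pseudocount of 0.1. Under rescaling 1 did so, irf1b at 24 hpf, and under totals without rRNA genes 0 did. Shifts that stayed within the interval are not counted here. With a pseudocount of 0.1, the members past 2-fold numbered 4 at 48 hpf in place of 1, the pathway genes (either direction) 40 at 24 hpf in place of 16 and 26 at 48 hpf in place of 6, and the members' median log2 ratio was 0.70 at 24 hpf and 0.84 at 48 hpf. Among members with a mean FPKM of at least 1, the medians were 1.76 and 0.94, but isg15 and mxc passed this filter at 24 hpf only through Kdm5a-KO, so these medians carry no support. A 3-fold threshold left 4 pathway genes at 24 hpf and 2 at 48 hpf. Shares of all genes at a pseudocount of 0.1 or at 3-fold are not given here, so nothing is read from those counts. Calling genes by the counting interval, a setting chosen after seeing the data, gave 3 members at 24 hpf and 4 at 48 hpf. It gave 41 pathway genes at 24 hpf (40 higher, 1 lower) and 32 at 48 hpf (23 higher, 9 lower), beside 28.6% of all genes higher and 7.30% lower at 24 hpf and 20.2% and 25.3% at 48 hpf. Leaving out irf1b, and totals without rRNA genes for the counts, the medians and the 48 hpf ratios, were also chosen after seeing the data. Low counts limit mxa, mxb, rsad2 and ifih1, and the depth of WT at 24 hpf limits the size of the isg15 ratio.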

Other observations

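The pathway list was also read across age within each genotype. In WT, 6 of 98 pathway genes were at least 2-fold higher at 48 than at 24 hpf and 0 were lower, beside 12.4% and 4.45% of all genes, and 5 of the 6 were antigen presentation genes. In Kdm5a-KO, 1 was higher and 5 were lower, beside 6.34% and 3.54% of all genes, and 3 of the 5 were antigen presentation genes. These comparisons use the same libraries as those between genotypes. Of 182 genes that the table annotates with the GO term defense response to virus, 4 of which are among the 8 interferon response genes, 6 (3.30%) were at least 2-fold higher in Kdm5a-KO at 24 hpf and 5 (2.75%) at 48 hpf, beside 2.72% and 2.56% of all genes.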
